A study of Homo sapiens with 6 samples.

Results

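The Sprouty, SPRED and DUSP genes examined here are 9 negative feedback regulators of the RAS-ERK pathway, namely SPRY1, SPRY2, SPRY4, SPRED1, SPRED2, DUSP2, DUSP4, DUSP5 and DUSP6. Their members were taken as all probe sets whose platform annotation gives exactly 1 of these symbols, which gave 18 of the 54675 probe sets on the array and 9 of the 12413 genes tested. The cells were VCaP, an established human prostate cancer cell line with a TMPRSS2-ERG gene fusion, and RNA was measured on 6 arrays. PRMT5 shRNA 1 and PRMT5 shRNA 2 cells carried a short hairpin RNA (shRNA) against PRMT5, a protein arginine methyltransferase, and NTC cells carried a non-targeting hairpin, with 2 arrays in each of the 3 groups. Every group, NTC included, was given doxycycline at 100 ng/ml for 3 days, so the hairpins were compared under the same drug. The origin of the replicates (separate cultures or not) is not given in the labels, and a p-value here measures only the spread between these arrays, which may be technical. No protein, phosphorylated ERK or kinase activity was measured.

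Receptor tyrosine kinases activate RAS, which acts through RAF and MEK on the kinase ERK. ERK in turn induces transcripts whose products dampen the same route. Sprouty proteins act between receptor and RAF, SPRED proteins bring the RAS-inactivating protein neurofibromin to the membrane, and the DUSP phosphatases remove the activating phosphates from ERK and other MAP kinases. DUSP2, DUSP4 and DUSP5 are nuclear, and DUSP6 is cytoplasmic. These transcripts are therefore widely used as readouts of ERK output, and loss of Sprouty expression has been described in prostate cancer.

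SPRY4 and DUSP2 were far higher with both PRMT5 hairpins than with NTC, and SPRED1 was higher with shRNA 1. With both hairpins averaged, SPRY1 was slightly higher, and SPRED2, DUSP4 and DUSP5 were slightly lower. Each of these slight differences lost its averaged call when either NTC array was left out. SPRY2 and DUSP6 passed in none of the contrasts. The members therefore differed in direction. The promoters of SPRY4 and DUSP2 are shown because these genes had the large differences, that of SPRED1 because its difference was tied to 1 hairpin, and that of DUSP6 because it is an ERK-responsive gene that did not pass. Of the 9 members, 7 had a promoter in the RefSeq table (build GRCh38.p14). Each sequence is the 250 bases before a RefSeq transcription start, 5′ to 3′ on the strand of the gene, with capitals on every GGAA, the core of ETS factor sites, read on either strand. SPRY4 is at chr5:142324248-142324497 (minus strand), DUSP2 at chr2:96145441-96145690 (minus strand), SPRED1 at chr15:38252586-38252835 (plus strand) and DUSP6 at chr12:89352502-89352751 (minus strand).
SPRY4: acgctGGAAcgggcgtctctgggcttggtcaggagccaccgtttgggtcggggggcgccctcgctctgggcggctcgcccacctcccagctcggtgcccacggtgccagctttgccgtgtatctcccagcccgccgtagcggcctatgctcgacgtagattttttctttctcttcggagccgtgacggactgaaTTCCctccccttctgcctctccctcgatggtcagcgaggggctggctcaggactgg
DUSP2: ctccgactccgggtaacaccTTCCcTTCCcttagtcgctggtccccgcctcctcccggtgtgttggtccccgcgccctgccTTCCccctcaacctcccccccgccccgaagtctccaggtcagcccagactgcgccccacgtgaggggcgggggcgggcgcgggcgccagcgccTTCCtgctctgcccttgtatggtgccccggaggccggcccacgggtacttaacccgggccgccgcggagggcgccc
SPRED1: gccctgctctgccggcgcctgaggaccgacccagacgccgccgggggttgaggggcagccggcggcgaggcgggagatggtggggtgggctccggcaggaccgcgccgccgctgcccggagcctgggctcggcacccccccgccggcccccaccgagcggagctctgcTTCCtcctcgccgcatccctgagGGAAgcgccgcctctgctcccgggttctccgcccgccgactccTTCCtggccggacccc
DUSP6: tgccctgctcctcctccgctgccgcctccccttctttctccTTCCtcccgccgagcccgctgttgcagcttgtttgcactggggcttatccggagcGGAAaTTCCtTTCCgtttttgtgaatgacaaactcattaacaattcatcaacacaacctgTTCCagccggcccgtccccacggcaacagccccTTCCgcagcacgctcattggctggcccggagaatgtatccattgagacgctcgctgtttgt

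The GGAA core was matched 2 times in the SPRY4 window, 4 times in DUSP2, 3 times in SPRED1 and 6 times in DUSP6. At least 1 match was present in 92.7% of the 35116 promoter windows of the same length in the table, with a median of 3. The letters TGACG, which are the first part of the cyclic AMP response element TGACGTCA, were found 1 time in SPRY4 (68 bases before the start) and 1 time in SPRY2, and in 21.2% of all windows. The E-box CACGTG was found 1 time in DUSP2 (113 bases before the start) and in 6.3% of all windows. The full element TGACGTCA (1.6% of all windows), the AP-1 site TGANTCA (6.6%) and the CArG box of serum response factor (1.2%) had 0 matches in the 7 windows, on either strand. The share of G and C was 65.6% in the SPRY4 window, 74.0% in DUSP2, 78.4% in SPRED1 and 57.2% in DUSP6, against a median of 58.0% over all windows. The start used for SPRY4 lies 774 bases from the outermost start of the gene in the RefSeq gene table. These matches describe letters only.

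Intensities are MAS5 probe set signals on a linear scale, whose array medians lay between 14.8 and 16.4. Differences are on the log2(intensity + 16) scale, each with its standard error (SE) from the limma fit, and a gene was called at a Benjamini-Hochberg adjusted p under 0.05 over all 12413 genes. The members were chosen with their differences from NTC known, so these are given as a description, without p-values. The representative probe set of each of the 9 members lay at or above the array median in all 6 arrays, so none entered only through the group where it was high. Levels are compared between groups and not between genes.

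**Figure D1:**
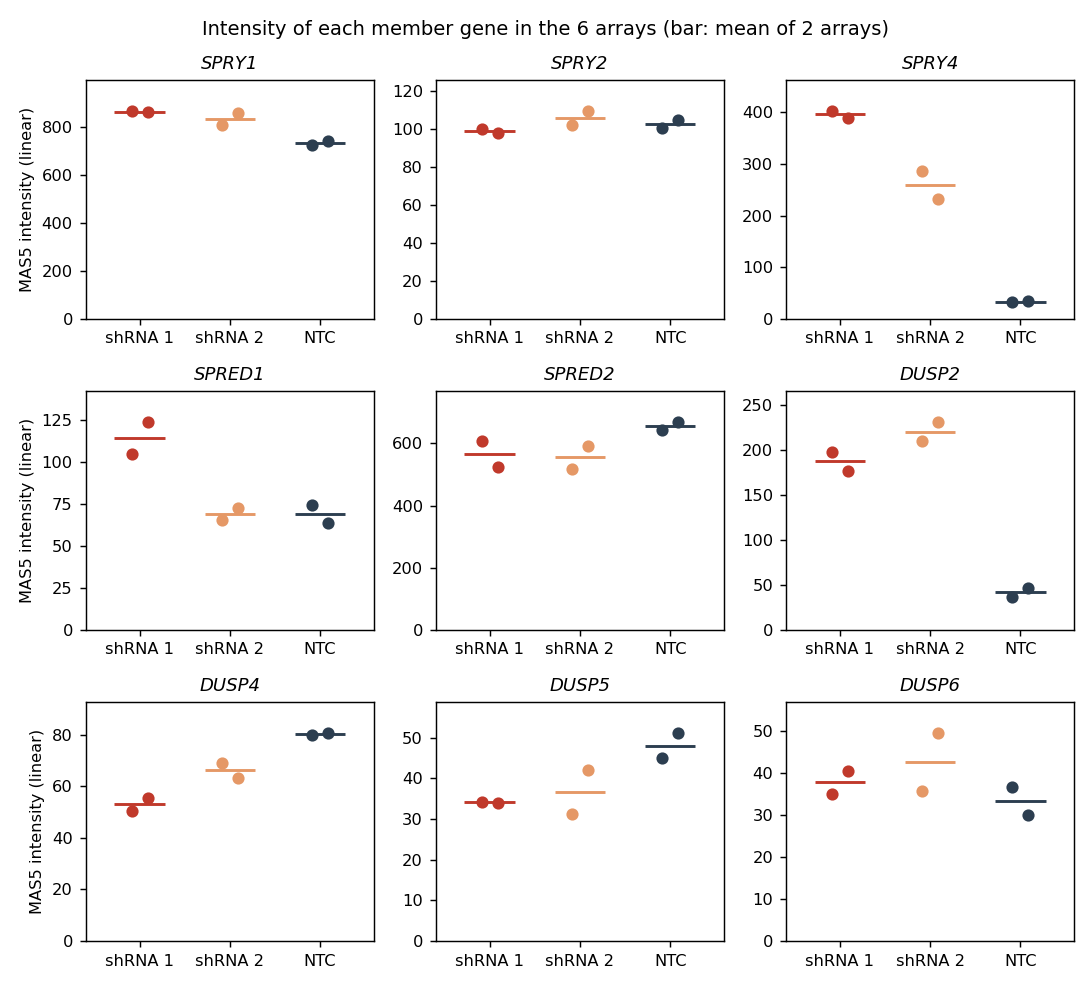
MAS5 intensity (linear axis from 0) of the representative probe set of each member, with a point for each array and a bar for the mean of 2 arrays, in the order PRMT5 shRNA 1, PRMT5 shRNA 2 and NTC. SPRY4 and DUSP2 stand far above NTC in all 4 PRMT5 shRNA arrays, and SPRED1 is above NTC in the PRMT5 shRNA 1 arrays.

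The target was checked first. PRMT5 averaged 135 ± 1.27 with PRMT5 shRNA 1 and 306 ± 21.1 with PRMT5 shRNA 2, against 845 ± 50.0 with NTC (intensity, SD, n = 2 each). Arrays of the same group correlated at 0.996 to 0.997 over all genes, and arrays of different groups at 0.976 to 0.991. ACTB signal at the 3' end over that at the 5' end, a measure of RNA quality, was 3.49 and 3.88 with PRMT5 shRNA 1 and 5.72 and 5.0 with PRMT5 shRNA 2, against 4.58 and 4.88 with NTC. The same ratio for GAPDH was 1.21 and 1.23 with PRMT5 shRNA 1 and 1.23 and 1.22 with PRMT5 shRNA 2, against 1.26 and 1.33 with NTC. The part of RNA quality in the results was not tested. All 9 luminal and VCaP markers with a probe set were above the filter, with group means of 226 to 5337. They were not steady. With both hairpins averaged, 4 were higher, 3 lower and 2 not called, where 32.4% of all genes were called. The averaged log2 difference was 1.13 for KLK3, 0.58 for KRT8 and 0.27 for KRT18. It was -0.28 for HOXB13, -0.21 for TMPRSS2 and -0.21 for ERG. With shRNA 2 alone, 2 were higher, 0 lower and 7 not called. Of 13 markers of other cell types, 10 were below the filter. The exceptions were ALB, with group means up to 894, COL1A1 and KRT14. Summed over the 13, their intensity was 969 to 1007 with PRMT5 shRNA 1 and 998 to 1029 with PRMT5 shRNA 2, against 941 to 1068 with NTC. Most of that sum was ALB, whose groups overlapped. KRT14 averaged 26.6 with PRMT5 shRNA 1 and 47.4 with PRMT5 shRNA 2, against 41.5 with NTC, and was called lower with shRNA 1 (-0.43, limma adjusted p = 0.018). COL1A1 averaged 27.6 with PRMT5 shRNA 1 and 47.4 with PRMT5 shRNA 2, against 32.8 with NTC. Between the hairpins, KRT14 (0.57, limma adjusted p = 0.0081) and COL1A1 (0.54, limma adjusted p = 0.016) were higher with shRNA 2. The part of the luminal, KRT14 and COL1A1 differences in the results was not tested. In bulk RNA fewer expressing cells and less RNA per cell cannot be told apart.

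Among the Sprouty genes, SPRY4, which restrains signalling from receptor tyrosine kinases, had the largest difference. Its intensity was 403 and 390 in the PRMT5 shRNA 1 arrays and 286 and 232 in the PRMT5 shRNA 2 arrays, against 31.7 and 33.7 in the NTC arrays. The 3 groups did not overlap, in the order shRNA 1, shRNA 2, NTC. The mean intensity was 12.1 times that of NTC with shRNA 1 and 7.91 times with shRNA 2. The log2 difference was 3.08 ± 0.10 (SE) with shRNA 1 and 2.49 ± 0.10 with shRNA 2, ranks 5 and 8 from the top of 12413 genes. With pseudocounts of 1 and 64 the shRNA 1 value of SPRY4 was 3.56 and 2.25, and the shRNA 2 value 2.94 and 1.73. SPRY4 was read by a single probe set of the _s_at type, whose probes can match more than 1 transcript.

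The noncoding transcript SPRY4-IT1 overlaps SPRY4 and had a probe set of its own. SPRY4-IT1 gave 318 and 401 with PRMT5 shRNA 1 and 185 and 156 with PRMT5 shRNA 2, against 22.5 and 16.7 with NTC. Its order over the groups was that of SPRY4. Because the transcripts overlap, this is no independent reading of SPRY4.

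SPRY1 and SPRY2, the relatives of SPRY4 with the same role, showed small differences or did not pass. SPRY1 was 867 and 860 with PRMT5 shRNA 1 and 810 and 858 with PRMT5 shRNA 2, against 726 and 740 with NTC. All 4 PRMT5 shRNA arrays lay above both NTC arrays, by a log2 difference of 0.23 ± 0.06 (SE) with shRNA 1, which was called, and 0.18 ± 0.06 with shRNA 2, which was not. The SPRY1 value with shRNA 2 was called without PRMT5 shRNA 2 replicate 1 (0.22). It was also called in the fit with the mean over probe sets. SPRY1 has only 1 kept probe set, so its value (0.18) was unchanged there. The SPRY1 call with shRNA 1 was lost without either PRMT5 shRNA 1 array (limma difference 0.23 without replicate 1 and 0.24 without replicate 2) and without NTC replicate 1 (0.22). The SPRY1 mean over both hairpins (0.21 ± 0.05) was called, but not without either NTC array (0.19 without replicate 1 and 0.22 without replicate 2). SPRY2 was 99.9 and 97.7 with PRMT5 shRNA 1 and 102 and 109 with PRMT5 shRNA 2, against 100 and 105 with NTC. The SPRY2 difference was -0.04 ± 0.09 (SE) with shRNA 1 and 0.04 ± 0.09 with shRNA 2, with 95% intervals of -0.25 to 0.16 and -0.17 to 0.24. Those intervals leave out any change of the size seen for SPRY4.

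The SPRED genes differed from each other. SPRED1, which works with neurofibromin to inactivate RAS, was 105 and 124 with PRMT5 shRNA 1 and 65.2 and 72.8 with PRMT5 shRNA 2, against 74.2 and 63.4 with NTC. The shRNA 1 arrays lay above all other arrays, while those of shRNA 2 and NTC overlapped. The SPRED1 log2 difference was 0.62 ± 0.11 (SE) with shRNA 1 and 0.00 ± 0.11 with shRNA 2. The mean of both hairpins (0.31 ± 0.10) was called, but not without either NTC array (0.40 without replicate 1 and 0.22 without replicate 2), not without the replicate 2 array of shRNA 1 (0.26) or of shRNA 2 (0.28), and not with the mean over probe sets (0.18). With that mean over its probe sets the shRNA 1 difference of SPRED1 was 0.34, still called. That mean includes a dim probe set kept only through the shRNA 1 arrays, so the call is no further support. The remaining SPRED1 probe set showed 0.12 with shRNA 1 and was not called. SPRED2, which shares that role, was 607 and 526 with PRMT5 shRNA 1 and 517 and 593 with PRMT5 shRNA 2, against 642 and 669 with NTC. All 4 PRMT5 shRNA arrays of SPRED2 lay below both NTC arrays. Its difference was -0.21 ± 0.09 (SE) with shRNA 1 and -0.24 ± 0.09 with shRNA 2, neither of them called. Their mean (-0.22 ± 0.07) was called, and lost its call without either NTC array (-0.25 without replicate 1 and -0.19 without replicate 2), without PRMT5 shRNA 1 replicate 2 (-0.17) and without PRMT5 shRNA 2 replicate 1 (-0.18). The shRNA 1 value was called when PRMT5 shRNA 1 replicate 1 (-0.31) or either PRMT5 shRNA 2 array was left out, and the shRNA 2 value without PRMT5 shRNA 2 replicate 2 (-0.33).

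Among the phosphatases, DUSP2, a nuclear MAP kinase phosphatase best known from immune cells, had the large difference. DUSP2 was 198 and 176 with PRMT5 shRNA 1 and 210 and 231 with PRMT5 shRNA 2, against 36.9 and 46.9 with NTC. The PRMT5 shRNA arrays did not overlap the NTC arrays, and the shRNA 2 arrays lay above those of shRNA 1. The mean intensity was 4.47 times that of NTC with shRNA 1 and 5.26 times with shRNA 2, and the DUSP2 log2 difference was 1.82 ± 0.11 (SE) and 2.03 ± 0.11. These were ranks 40 and 21 from the top of 12413 genes. With a pseudocount of 64 the DUSP2 values were 1.25 and 1.43.

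DUSP4 and DUSP5, both nuclear MAP kinase phosphatases, lay the other way. DUSP4 was 50.6 and 55.5 with PRMT5 shRNA 1 and 69.2 and 63.2 with PRMT5 shRNA 2, against 79.9 and 80.7 with NTC. The 3 groups of DUSP4 did not overlap, and its difference was -0.48 ± 0.10 (SE) with shRNA 1 (called) and -0.23 ± 0.10 with shRNA 2 (not called). The mean of both hairpins for DUSP4 (-0.36 ± 0.09) was called, and lost its call without either NTC array (-0.36 without replicate 1 and -0.35 without replicate 2). The mean over its 3 probe sets gave DUSP4 a difference of -0.27 with shRNA 1, still called. DUSP5 was 34.1 and 34.0 with PRMT5 shRNA 1 and 31.2 and 42.0 with PRMT5 shRNA 2, against 45.0 and 51.1 with NTC. All 4 PRMT5 shRNA arrays of DUSP5 lay below both NTC arrays, although those of shRNA 2 spread widely. The DUSP5 difference was -0.35 ± 0.12 (SE) with shRNA 1 (called) and -0.29 ± 0.12 with shRNA 2 (not called). The shRNA 1 call was lost when either array of NTC or of PRMT5 shRNA 1 was left out (-0.42 to -0.29 in those fits), and the averaged call (-0.32 ± 0.11) was lost whenever 1 array other than PRMT5 shRNA 2 replicate 2 was left out (-0.39 to -0.25). Without that array the shRNA 2 difference of DUSP5 was -0.44 and was called.

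DUSP6, the cytoplasmic phosphatase specific for ERK, did not pass. DUSP6 was 35.0 and 40.6 with PRMT5 shRNA 1 and 35.7 and 49.5 with PRMT5 shRNA 2, against 36.7 and 29.9 with NTC. The 3 groups overlapped. Its difference was 0.13 ± 0.14 (SE) with shRNA 1 and 0.24 ± 0.14 with shRNA 2, with 95% intervals of -0.17 to 0.43 and -0.06 to 0.54. No contrast of DUSP6 was called under any alternative run.

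**Figure D2:**
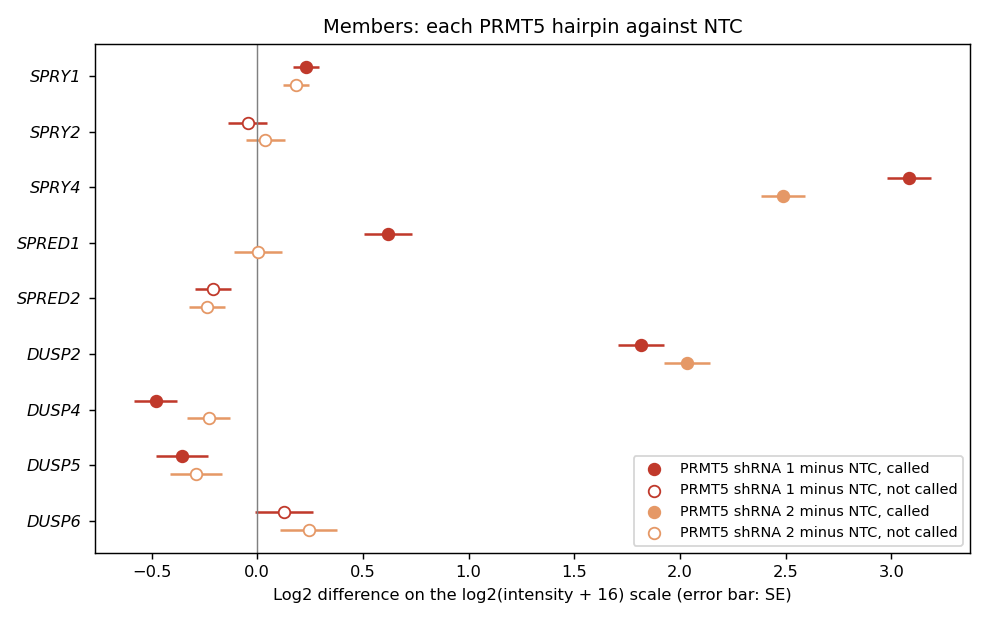
Log2 difference between each PRMT5 hairpin and NTC for every member, on the log2(intensity + 16) scale, with error bars for the SE and filled points for called genes. SPRY4 and DUSP2 lie between 1.82 and 3.08 with both hairpins, and the other 7 members lie between -0.48 and 0.62.

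Counted over the members, PRMT5 shRNA 1 had 4 higher, 2 lower and 3 not called of 9, where 39.3% of all genes tested were called (16.2% higher and 23.1% lower). PRMT5 shRNA 2 had 2 higher, 0 lower and 7 not called, where 21.4% of all genes were called (13.1% higher and 8.39% lower). With both hairpins averaged, 4 were higher, 3 lower and 2 not called, beside 32.4% of all genes (15.4% higher and 17.0% lower). Nothing is read from these shares, because the members were chosen with these contrasts known. The median log2 difference of the 9 members was 0.13 with shRNA 1 and 0.04 with shRNA 2, beside -0.04 and 0.01 for all genes. Without either NTC array the averaged count was 2, and those were SPRY4 and DUSP2. The intensities did not overlap between PRMT5 shRNA 1 and NTC arrays for 8 of 9 members (72.3% of all genes), and between PRMT5 shRNA 2 and NTC arrays for 6 (59.8% of all genes). For 6 members all 4 PRMT5 shRNA arrays were above, or all 4 below, both NTC arrays (39.2% of all genes). Both contrasts share the NTC arrays.

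The log2 difference between the hairpins uses no NTC value. Its SE, interval and call do draw on the NTC arrays, because the fit estimated the spread over all groups together. This contrast is the difference of values that were known when the members were chosen, so it too is given as a description, without p-values. The groups of KRT14, COL1A1, ERG, HOXB13 and PRMT5 differed in this contrast as well. SPRY4 was lower with shRNA 2 than with shRNA 1 by -0.59 ± 0.10 (log2 difference, SE), which was called, with both shRNA 2 arrays below both shRNA 1 arrays. SPRED1 was lower by -0.61 ± 0.11, also called, again with both shRNA 2 arrays below both shRNA 1 arrays. With the mean over its 3 probe sets the SPRED1 difference was -0.32. That mean includes the dimmest probe set, kept only through the shRNA 1 arrays, so it is no further support. The calls of SPRY4 and SPRED1 were kept in every alternative in which the gene was tested. For SPRY4 that leaves out the fit without _x_at and _s_at probe sets. The hairpins also differed in knockdown, with PRMT5 intensity higher under shRNA 2 by 1.09 ± 0.08 (limma adjusted p = 8.0e-05). Its part in these differences was not tested. The other 7 members were not called, so 2 of 9 were called, both lower, beside 25.7% of all genes (18.3% higher and 7.38% lower). Their intervals were -0.03 to 0.46 for DUSP2, 0.03 to 0.47 for DUSP4 and -0.18 to 0.08 for SPRY1. DUSP4 was called in the fit without an intensity trend. For SPRY2 the interval was -0.12 to 0.29, for SPRED2 -0.22 to 0.16, for DUSP5 -0.21 to 0.34 and for DUSP6 -0.19 to 0.42.

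Of the 18 probe sets of the members, 14 passed the filter. SPRY2, SPRY4, DUSP2 and DUSP5 had a single probe set each, so the SPRY4 and DUSP2 differences have no other probe set to be set beside. In a fit over all 28644 probe sets that passed, 7 of the 14 were called with PRMT5 shRNA 1 (36.4% of all probe sets), 2 with PRMT5 shRNA 2 (18.0%), 7 with both averaged (28.2%) and 3 between the hairpins (25.8%). The 3 probe sets of SPRED1 did not give the same picture. Between shRNA 2 and shRNA 1 the brightest differed by -0.61 and was called, while the second showed 0.01 and was not. The dimmest SPRED1 probe set had 17.3 and 17.3 with PRMT5 shRNA 1 and 11.1 and 8.9 with PRMT5 shRNA 2, against 12.1 and 10.4 with NTC, and reached the array median only in the shRNA 1 arrays. It passed the filter only through the group where it was high, so its call between the hairpins, 1 of the 3 counted, supports nothing.

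The 3 probe sets of DUSP4 were all lower than NTC, by -0.48, -0.28 and -0.04 with PRMT5 shRNA 1 and by -0.23, -0.18 and -0.16 with PRMT5 shRNA 2. Of these, 2 were called with shRNA 1 and 0 with shRNA 2. DUSP6 had 2 probe sets above the filter, which differed in sign (0.13 and -0.03 with shRNA 1, and 0.24 and -0.05 with shRNA 2) and neither of which was called. The 4 probe sets below the filter belonged to SPRY1, SPRED2 and DUSP6, with a highest value of 15.7 in any array.

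**Figure D3:**
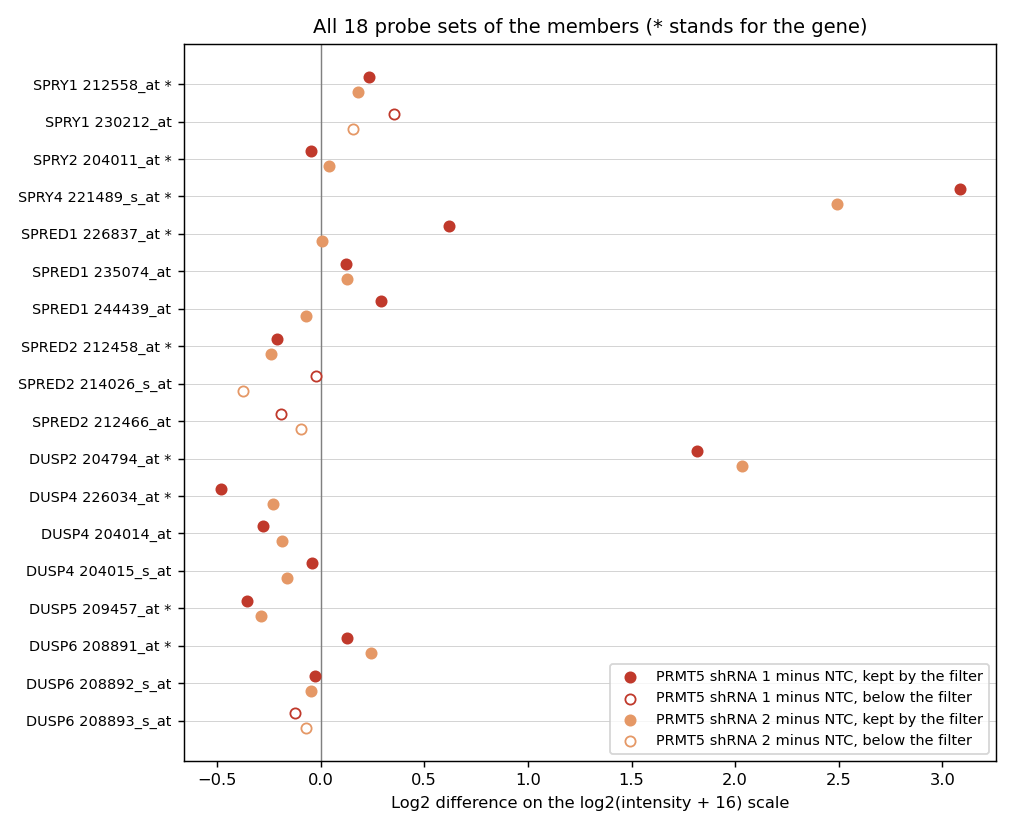
Log2 difference from NTC for all 18 member probe sets with PRMT5 shRNA 1 and PRMT5 shRNA 2, with open points for the 4 below the intensity filter and an asterisk on the probe set that stands for its gene. The 3 SPRED1 probe sets spread from 0.12 to 0.62 with shRNA 1, and those of DUSP4 all lie below 0.

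The genes whose profile over the 6 arrays lay closest to a member were found by the root mean square distance of centred log2 values. For SPRY4 they were SLC15A2 (distance 0.19, r = 0.99), SPRY4-IT1 (0.22, r = 0.99) and TGFB2 (0.23, r = 0.99). For DUSP2 they were A1CF (0.09, r = 1.00), DNASE1L3 (0.11, r = 1.00) and RGS4 (0.14, r = 0.99). For SPRED1 the nearest were LOC114224 (0.06), CNEP1R1 (0.06) and WNT5A (0.07). For the members with small differences the distances to the nearest gene were 0.02 to 0.03. These values describe 6 arrays in 3 groups.

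The rest of the pathway was read from 6 lists of genes upstream of, beside or downstream of the members. The lists too were chosen with earlier results of these data known. Their calls, shares and p-values are therefore a description and no fresh test. Of 77 genes tested in them, 16 were higher, 9 lower and 52 not called with both hairpins averaged (32.5%, against 32.4% of all genes), with a median difference of -0.01, as for all genes. In that contrast the share called over the 6 lists was thus that of the background. It lay above the background elsewhere, at 45.5% with shRNA 1 (39.3% of all genes), 29.9% with shRNA 2 (21.4%) and 36.4% between the hairpins (25.7%).

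Of 11 ligands of receptor tyrosine kinases tested, 4 were lower, 1 higher and 6 not called (median -0.11). Thus 45.5% were called, beside 32.4% of all genes (15.4% higher and 17.0% lower). PDGFC, a ligand of platelet-derived growth factor receptors, fell by 1.99 ± 0.09 (SE) on the log2 scale, and HGF, the ligand of MET, fell by 1.44 ± 0.09. HBEGF, a ligand of EGFR (-0.83 ± 0.08), and KITLG, the ligand of KIT (-0.41 ± 0.09), fell as well. VEGFA, an angiogenic factor, rose by 0.81 ± 0.09. KITLG lost its call without NTC replicate 1.

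Of 14 receptors, 6 were higher, 2 lower and 6 not called (median 0.12), so 57.1% were called, beside 32.4% of all genes. KIT was 33.1 and 32.2 with PRMT5 shRNA 1 and 32.8 and 50.8 with PRMT5 shRNA 2, against 6.90 and 6.50 with NTC. Both NTC values of KIT lay below the array medians, so it passed the filter only through the groups where it was high, and its call, 1 of the 6 counted, supports nothing. The log2 difference of KIT was 2.29 with a pseudocount of 1 and 0.51 with 64. EGFR rose by 0.82 ± 0.08 and its partner ERBB3 by 0.78 ± 0.08, and IGF1R rose by 0.22 ± 0.05, a call lost without NTC replicate 1 (0.19). FGFR1, a fibroblast growth factor receptor, fell by 1.07 ± 0.08, and the ephrin receptor EPHA4 fell by 0.56 ± 0.10 in the averaged contrast, called with shRNA 2 (-0.91) and not with shRNA 1 (-0.20). With the mean over probe sets the value was 0.52 for IGF1R, -0.43 for FGFR1 and -0.29 for EPHA4, all still called.

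The RAS-ERK core had 2 genes higher, 2 lower and 14 not called of 18 (median 0.08), so 22.2% were called, beside 32.4% of all genes. The adaptor gene GAB1 fell by 0.67 ± 0.10 (SE), and by 0.32 with the mean over probe sets, still called. SOS1, a RAS activator (0.33 ± 0.09), SHOC2, a RAF activator (0.19 ± 0.06), and the kinase gene ARAF (-0.24 ± 0.08) were called, and each lost its call without either NTC array. SHOC2 and ARAF also lost it without either PRMT5 shRNA 1 array, and ARAF without PRMT5 shRNA 2 replicate 1, with a replicate block (limma adjusted p = 0.061) and with no filter. With the mean over probe sets ARAF was at -0.014 (limma adjusted p = 0.91) and SOS1 at 0.14 (limma adjusted p = 0.12), neither called. MAPK3, which encodes the kinase ERK1, was not called (-0.23 ± 0.09, limma adjusted p = 0.080). At the same value it was called in the fits with the mean over probe sets and with no intensity trend.

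Other negative regulators of receptors and RAS had 2 genes higher, 1 lower and 8 not called of 11 (median -0.03). Of them 27.3% were called, beside 32.4% of all genes. LRIG1, which promotes receptor degradation, fell by 0.59 ± 0.06 (SE). RASAL2, a RAS inactivator, rose by 0.22 ± 0.06, a call lost without NTC replicate 1, and the ubiquitin ligase gene CBLB rose by 0.29 ± 0.09, a call lost without either NTC array and without the replicate 2 array of either PRMT5 hairpin. Of 9 other DUSP genes, only DUSP1, a nuclear MAP kinase phosphatase, was called in the averaged contrast (11.1%, beside 32.4% of all genes). DUSP1 was at 0.48 ± 0.10 (limma adjusted p = 0.0040), and the call was lost without NTC replicate 1 (0.34). With the mean over probe sets DUSP1 was at 0.27, still called.

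Of 16 other ERK-induced transcripts, 4 were higher, 2 lower and 10 not called (median 0.00), so 37.5% were called, beside 32.4% of all genes. PHLDA1 (0.93 ± 0.09, SE), MAFF (0.69 ± 0.07), EGR1 (0.58 ± 0.07) and FOSL2 (0.48 ± 0.07) rose in the averaged contrast. FOSL2 passed for shRNA 1 (0.77), whereas its shRNA 2 value (0.18) did not. HBEGF and EPHA4, which stand in 2 of the lists, fell. PHLDA1 had 165 and 158 with PRMT5 shRNA 1 and 123 and 114 with PRMT5 shRNA 2, against 69.7 and 60.2 with NTC, the same order of groups as SPRY4. FOSL2 had that order too. In EGR1 and MAFF the shRNA 2 arrays instead lay above the shRNA 1 arrays, with neither gene called between the hairpins. With the mean over probe sets the averaged difference of PHLDA1 was 0.59, still called.

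**Figure D4:**
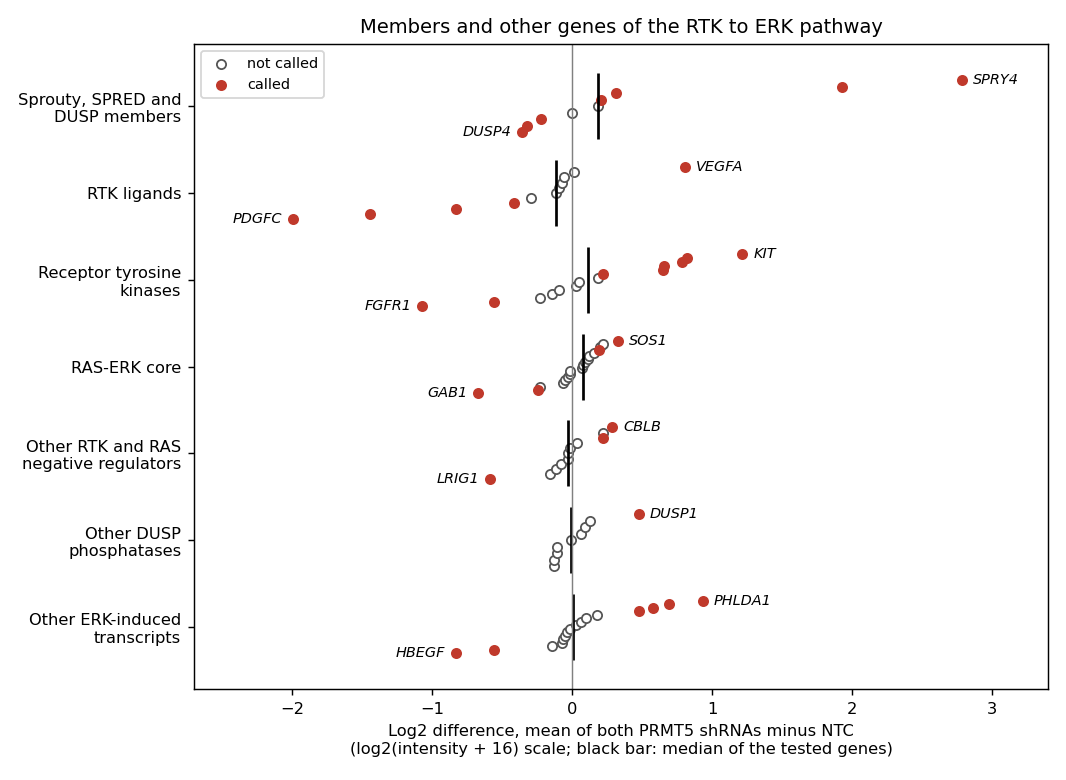
Log2 difference (mean of both PRMT5 shRNAs minus NTC, log2(intensity + 16) scale) of the 9 members and of the tested genes of 6 pathway lists, with filled points for called genes and a black bar for each median. SPRY4 (2.79) and DUSP2 (1.92) lie above every other gene drawn, and PDGFC (-1.99) lies below.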

How the data were processed

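Gene expression was measured on 6 one-colour arrays with amplified, biotin-labelled cDNA. The deposited values are linear probe set intensities. MAS5 made them, per the submitters' processing notes. Its version and the detection calls were not given in the sources used. The trimmed mean of each column (2% off each end) was near 150, and the values were not scaled again. Probe sets were named by the platform annotation, and those with exactly 1 symbol were used (41091, of which 41037 matched the RefSeq table of GRCh38.p14).

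A probe set was kept if it reached its array's median (over probe sets other than the 62 controls) in at least 2 of 6 arrays, and the brightest kept one stood for its gene. The log2(intensity + 16) of the deposited values was modelled in limma 3.58.1 (R 4.3.3; lmFit, contrasts.fit, eBayes with trend) with a coefficient per group over all 6 arrays and 3 residual degrees of freedom. P-values were two-sided and adjusted by Benjamini-Hochberg over all genes. The number of arrays limits the precision. The fit was tested on simulated data. The alternatives were other pseudocounts, no filter, quantile normalization, other choices of probe set, no trend, a replicate block and leaving out each array. Pooling both hairpins into 1 group was chosen after seeing the data.

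The members and lists were chosen with earlier results of these data known. Named genes were PRMT5, the members, the 3 nearest genes in profile, and in each list the called genes (up to 6, otherwise the 3 highest and 3 lowest) and MAPK3.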

Additional observations from a re-analysis of the deposited data

Results flagged for a closer look

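For 2 members shRNA 2 against shRNA 1 was called. Both hairpins' values were known when the members were chosen, so this is a description and no independent finding. SPRED1 was lower with PRMT5 shRNA 2 than with PRMT5 shRNA 1 by -0.61 on the log2 scale, while another of its 3 probe sets showed 0.01. SPRY4 was lower by -0.59. PRMT5 intensity averaged 306 with shRNA 2 and 135 with shRNA 1, and its part in either difference was not tested.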

How the results depend on the processing

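SPRY4 and DUSP2 were called higher with each hairpin and with their mean in every alternative in which they were tested (SPRY4 has no value without _x_at and _s_at probe sets). Over these the averaged difference ran from 1.99 to 3.25 for SPRY4 and from 1.34 to 2.26 for DUSP2. Of the member values under the alternatives, 455 kept direction and side of the threshold, 35 lost a call, 8 gained a call and 11 turned sign.

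Members called with both hairpins averaged numbered 4 with no filter on dim probe sets (more genes tested) and 2 with both PRMT5 shRNAs as 1 group, which also gave 1501 genes in all. SPRED1, SPRED2 and DUSP5 lost the averaged call with no filter, SPRED2 also with no intensity trend, and all but SPRY4 and DUSP2 with both hairpins as 1 group, where KITLG, EPHA4, FOSL2, SOS1, SHOC2, ARAF, RASAL2 and CBLB lost theirs too. CBLB and ARAF also lost it with no filter, and SHOC2 with no intensity trend. Without _x_at and _s_at probe sets, which removes SPRY4, 1 member was called with shRNA 2 against NTC and 1 between the hairpins. Leaving out each array gave 2 to 6 members for the mean, 4 to 7 for shRNA 1, 2 to 4 for shRNA 2 and 2 between the hairpins. All genes called ran from 2180 to 4254 (mean), 3183 to 5297 (shRNA 1), 1551 to 2450 (shRNA 2) and 1327 to 2834 (between hairpins), and pathway list genes from 22 to 36 (shRNA 1) and 13 to 25 (between hairpins). Fewer arrays enter those fits.

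The sign turns were in values not called. The SPRY2 mean was 0.0021 under quantile normalization and ran from -0.031 to 0.025 when each array was left out, above 0 when the array left out was NTC replicate 2, replicate 2 of shRNA 1 (0.0038) or replicate 1 of shRNA 2 (0.019). SPRY2 with shRNA 2 ran from -0.0058 (without PRMT5 shRNA 2 replicate 2) to 0.082, and SPRED1 with shRNA 2 from -0.087 to 0.097, below 0 without the replicate 2 array of NTC or of shRNA 2 (-0.06). Between the hairpins SPRED2 ran from -0.13 to 0.073, above 0 without the replicate 1 array of either hairpin. Without PRMT5 shRNA 2 replicate 2, DUSP5 (-0.085 to 0.21) and DUSP6 (-0.055 to 0.29) were below 0. The cause was not tested.

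Replicate numbers are shared by the groups, but same-numbered arrays did not deviate together (correlations over genes of -0.09, -0.18 and -0.0045). With a replicate block 7 members were called for the mean, 6 for shRNA 1, 2 for shRNA 2 and 2 between the hairpins, as without it. Of the pathway genes named, ARAF lost its averaged call with the block (adjusted p = 0.061).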
